A study of Mus musculus with 9 samples.

Results

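The genes of the mitochondrial ribosomal proteins were taken as all 78 genes of the deposited table whose symbol is Mrpl or Mrps followed by a number and at most 1 letter, out of 22192 genes in all. By where the protein sits in the ribosome, 51 belong to the large subunit and 26 to the small subunit. The large-subunit set includes Mrps18a and Mrps30, whose proteins were named as small-subunit proteins but lie in the large subunit. The product of Mrps36 is a part of the 2-oxoglutarate dehydrogenase complex, and that gene is kept apart from both subunits here. Of the large-subunit proteins 29 are listed here with a bacterial ribosomal counterpart and 22 as mitochondria-specific, and of the small-subunit proteins 16 and 10. The mitochondria-specific lists include Mrps18a and Mrps18b, relatives of bacterial S18, so the name is that of a list and not of origin. All 78 genes were above 0 TPM (transcript abundance scaled to gene length and to the library total) in all 9 libraries and passed the filter on low values, a mean of at least 1 TPM.

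Mitochondrial ribosomes make the few proteins that the mitochondrial genome encodes, which are core parts of the respiratory chain and of ATP synthase. Their RNAs come from the mitochondrial genome, while every protein of the ribosome is encoded in the nucleus, made in the cytosol and imported. The large subunit joins amino acids and passes the growing chain through an exit tunnel next to the inner membrane, and the small subunit reads the messenger RNA. In the brain, neurons draw most of their ATP from oxidative phosphorylation, and changes in mitochondrial translation have been tied to longevity in mice and worms.

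RNA of KM mice, an outbred stock, was sequenced in 9 libraries labelled as brain, with males given in the design text. The young saline group was 5 months old and the aged saline group 18 months old, and both were gavaged with physiological saline. The aged GRP-E1F2 group was 18 months old and received 200 mg/kg of GRP-E1F2, a ginseng root polysaccharide fraction, on the same schedule of every 2 days for 4 weeks. Each group holds 3 libraries, labelled as parallel samples. Whether these are separate animals is not said in the labels. The p-values therefore cover the spread among these samples alone, which may be technical.

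The table holds no counts, so the depth of each library is unknown, and library sums were 999667 to 999929 TPM. The tissue is labelled brain while the extraction protocol speaks of retina: the 6 photoreceptor markers summed to 1.37 to 6.35 TPM per library and the 6 general neuronal markers to 4057 to 5307 TPM. Y-linked Ddx3y, Eif2s3y, Kdm5d and Uty stood at 0.174 TPM or below in all libraries, against the sex given in the design text. The X-linked copies Ddx3x and Eif2s3x stood at 38.8 to 71.5 TPM. Within every group, the value of 1 library often fell between those of the other pair. For young library 3 this held at 42 of the 78 mitochondrial ribosomal protein genes and 62.6% of the 13301 tested genes, for aged library 2 at 37 and 66.4%, and for treated library 3 at 57 and 67.8%, against 6 to 21 members for the other 6 libraries. A repeat of each count of changed members leaves these 3 out and keeps 2 libraries per group. Regional markers differed between the groups too: the 10 markers of cerebellar neurons summed to 6083 to 8414 TPM in young, 3967 to 4269 TPM in aged and 452 to 532 TPM in treated libraries. The 6 neocortical markers summed to 394 to 506 TPM, 629 to 693 TPM and 554 to 987 TPM in the same order, and the 6 hindbrain and spinal cord markers to 37.5 to 52.1 TPM, 1.58 to 7.04 TPM and 0.181 to 0.657 TPM. Single libraries of a group differed as well: choroid plexus markers summed to 159 to 1249 TPM among aged and 21.3 to 961 TPM among treated libraries, and anterior pituitary markers to 4.34 to 883 TPM among treated ones.

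The promoters of these genes are shown first, to describe what genes scattered over 17 chromosomes have in common in sequence. RefSeq (GRCm38.p6) promoters, each running from 250 bases before to 50 bases after a start, were at hand for 69 of the 78 genes, 75 promoters in all. The others are Mrpl4, Mrpl13, Mrpl15, Mrpl19, Mrpl38, Mrpl54, Mrps28, Mrps34 and Mrps35. Stretches upstream of the start are printed 5′ to 3′ on the gene's strand for 4 large-subunit genes that fell with GRP-E1F2 or between young and treated libraries and for 1 that fell with age. Capitals mark matches to the ETS-family motif CCGGAAG or to the NRF1 motif, which is GCGCA and GCGC with any base between them. NRF1 and the ETS-family factor GABP are known as activators of nuclear genes for mitochondrial proteins. The stretch of Mrpl34 is chr8:71464859-71464925 (plus strand), that of Mrpl22 chr11:58171581-58171647 (plus), that of Mrpl17 chr7:105811100-105811337 (minus), that of Mrpl45 chr11:97315566-97315715 (plus) and that of Mrpl9 chr3:94443278-94443317 (plus), and none of them overlaps an exon of the GENCODE vM21 annotation.
Mrpl34: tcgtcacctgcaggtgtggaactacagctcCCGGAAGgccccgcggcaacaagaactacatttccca
Mrpl22: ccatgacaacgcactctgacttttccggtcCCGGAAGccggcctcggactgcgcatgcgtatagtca
Mrpl17: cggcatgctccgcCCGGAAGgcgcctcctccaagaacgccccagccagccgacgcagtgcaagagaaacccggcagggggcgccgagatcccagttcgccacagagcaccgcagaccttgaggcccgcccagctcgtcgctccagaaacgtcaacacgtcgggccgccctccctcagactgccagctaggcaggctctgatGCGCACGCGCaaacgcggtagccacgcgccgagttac
Mrpl45: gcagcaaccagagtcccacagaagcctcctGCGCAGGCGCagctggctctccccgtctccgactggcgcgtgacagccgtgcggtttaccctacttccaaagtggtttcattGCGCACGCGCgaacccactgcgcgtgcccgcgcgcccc
Mrpl9: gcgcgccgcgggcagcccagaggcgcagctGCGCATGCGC

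An ETS match stood in 26 of the 75 promoters (34.7%), an NRF1 match in 13 (17.3%) and a match to the YY1 motif AAGATGGCG in 8 (10.7%). Among the 13499 promoters of all tested genes the shares were 15.5%, 9.05% and 2.73%, and over all 32851 RefSeq promoters they were 8.86%, 4.60% and 1.40%. At least 1 of these 3 motifs was found in 54.7% of the family's promoters and in 24.7% of those of tested genes. The E-box CACGTG, by contrast, stood in 9.33% and 9.57%. Shares are per promoter and not per gene, and the family's E-box share counts the same site of Mrpl2 in each of its overlapping promoters. Both strands were searched, and a palindromic NRF1 match, as in Mrpl9, was counted once per promoter. Base composition was close: the family's promoters had a median GC content of 58.7% and 21 CpG dinucleotides, against 60.7% and 20 in those of tested genes. A match describes letters and shows neither binding nor a cause. Among the sequences printed above, Mrpl34 and Mrpl22 carry 1 ETS match, Mrpl17 1 of each kind and Mrpl45 a pair of NRF1 matches. Matches were not limited to members that fell. Of members that rose between young and treated libraries, Mrpl30 and Mrpl32 carry an NRF1 match, and Mrpl3, Mrpl33, Mrps18b and Mrps33 an ETS match. Mrps17, which also rose, carries neither, nor do Mrps5, Mrps6 and Mrps7, which fell. Whether matches go with a change was not tested.

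Many of these genes start next to another gene. For 33 of 78 members (42.3%) a protein-coding gene on the opposite strand started within 1000 bases, against 1911 of 12716 tested protein-coding genes (15.0%). In 1 such pair both genes belong to the family: Mrpl46, of the large subunit, and Mrps11, of the small subunit, start 412 bases apart on chromosome 7. The partners differ in function, and no theme was tested. They include Sars2, the mitochondrial seryl-tRNA synthetase, 172 bases from Mrps12, Ndufs6, a complex I subunit, 29 bases from Mrpl36, and Fau, a cytosolic ribosomal protein gene, 59 bases from Mrpl49. They also include Hira, a histone chaperone, 175 bases from Mrpl40, and Klc4, a kinesin light chain, 207 bases from Mrpl2. Exons overlap as well: 11 members share at least 10% of their exonic length with another gene of the table, the most being Mrps25 with Nr2c2 (69.8%) and Mrps34 with Mapk8ip3 (63.4%). The sources used here do not give how the counting treated strand and shared reads, so the levels of these 11 genes are uncertain. Of these 11, the genes named below as changed are Mrps25 (under another scaling only), Mrps6, which shares 10.4% with Slc5a3, Mrpl18, which shares 10.1% with Tcp1, Mrpl43, which shares 33.4% with Twnk, and Mrpl46, which shares 12.2% with Mrps11. Mrpl53 shares 88.0% with Gm42688, a gene model not analysed here.

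**Figure D1:**
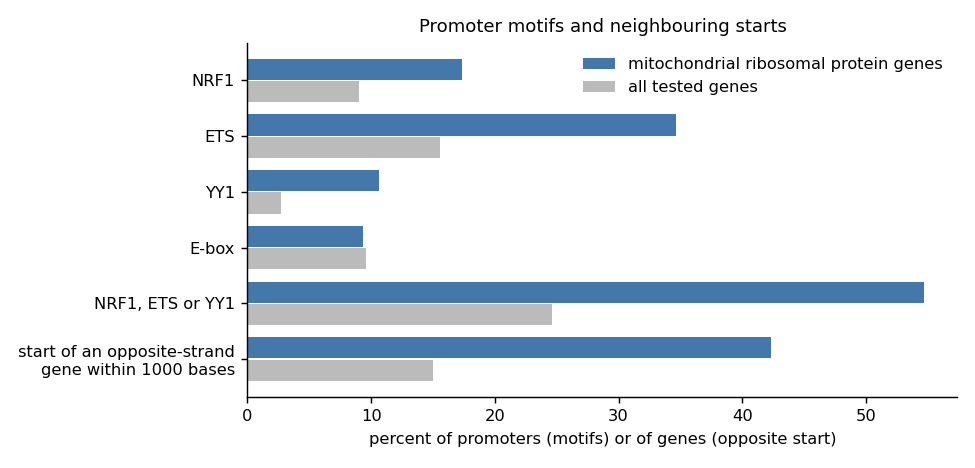
Percent of RefSeq promoters (250 bases before to 50 after the start) holding a match to each motif on either strand, and percent of protein-coding genes with an opposite-strand start within 1000 bases, for the mitochondrial ribosomal protein genes (blue) and all tested genes (grey). The blue bar for NRF1, ETS or YY1 stands at 54.7% and the grey one at 24.7%, while the E-box bars are nearly equal at 9.33% and 9.57%.

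The family was expressed well above the typical gene, over a wide range. Mean TPM over the 9 libraries ran from 7.57 for Mrpl1 to 514 for Mrpl33, a 67.9-fold span, with a median of 75.9 TPM against 13.6 TPM over all tested genes. Of the 78 genes, 75 stood at or above that general median, 25 had a mean of at least 100 TPM and 70 of at least 20 TPM. The 8 highest were Mrpl33 (514 TPM), Mrps21 (458 TPM), Mrps33 (402 TPM), Mrpl34 (277 TPM), Mrpl53 (249.97 TPM), Mrpl57 (235 TPM), Mrps36 (192 TPM) and Mrpl41 (183 TPM), and they held 33.2% of the family's summed TPM. TPM is a level per length, which is the scale of this order. Mean TPM was still lower for longer genes (Spearman's rho -0.353 with exonic length over the 78 genes and -0.186 over 12811 tested genes), and the 8 highest had a median exonic length of 1081 bases against 2394 for the family. The 4 lowest were Mrps22 (14.4 TPM), Mrpl47 (13.3 TPM), Mrps31 (12.7 TPM) and Mrpl1 (7.57 TPM).

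**Figure D2:**
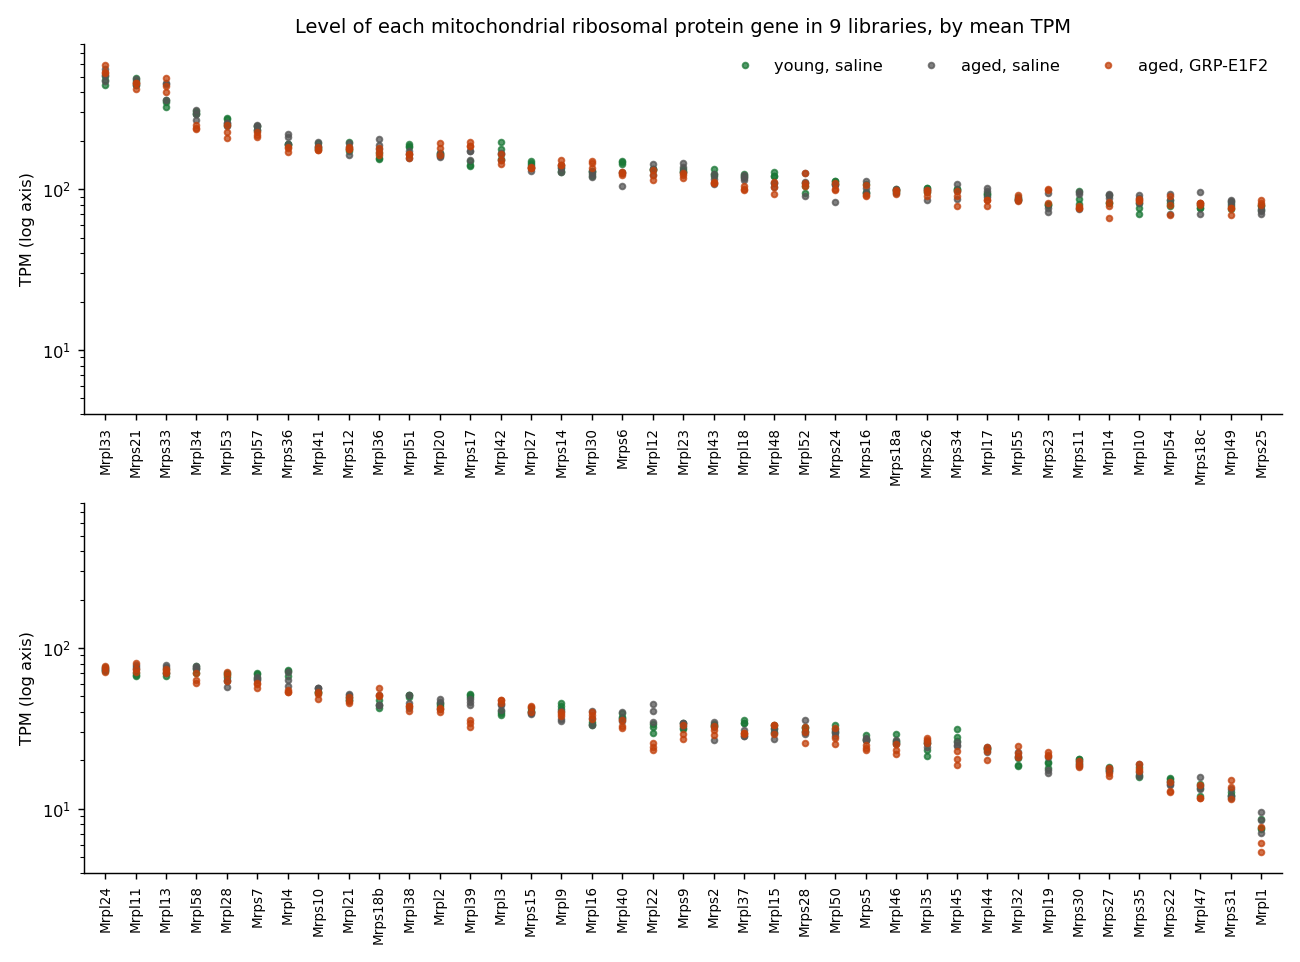
TPM (log axis) of each of the 78 mitochondrial ribosomal protein genes in each of the 9 libraries, ordered by mean; green points are young saline, grey aged saline and orange aged GRP-E1F2 libraries. The points of a gene lie within 2-fold of each other, while the means span 67.9-fold from Mrpl33 to Mrpl1.

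The order of the genes was nearly the same in every library, with Spearman's rho over the 78 genes between 0.981 and 0.997 for any pair of libraries. This describes genes of the same libraries, which share gene length and sequence. Each gene varied little across libraries: the highest library was less than 2-fold above the lowest for all 78 genes, and less than 1.5-fold for 73. The median coefficient of variation over the 9 libraries was 7.90%, against 11.4% over the 8254 genes whose mean TPM fell in the same range and 13.9% over all tested genes. That range runs from 7.57 to 514 TPM, and its genes were not matched to the family's levels within it. The part of expression level in this difference was not tested. Mrps18a varied least, at 2.47%. It stood at 99.7, 95.5 and 98.9 TPM in young, 98.6, 101 and 95.1 TPM in aged and 93.2, 98.2 and 97.3 TPM in treated libraries, so the groups overlapped throughout. Mrpl22 varied most, at 23.0%, and is described under GRP-E1F2.

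Summed over the 78 genes, the family took 0.728% to 0.782% of a library's TPM. The sums were 7620.1, 7564 and 7562 TPM in young libraries, 7637, 7816 and 7525 TPM in aged libraries, and 7277, 7651 and 7399 TPM in treated libraries, with means of 7582 ± 33.1, 7659 ± 147 and 7442 ± 191 TPM (SD, n = 3). The groups overlapped, and the highest library was 1.07-fold above the lowest. This depended on scaling: after median of ratios the sums were 7249 to 7453 TPM in young, 7483 to 7919 TPM in aged and 7378 to 7929 TPM in treated libraries, so that every aged library stood above every young one, as it also did after quantile normalisation. In the deposited TPM the ratio of the highest to the lowest library was 1.21 for 84 cytosolic ribosomal protein genes and 1.26 for 82 nuclear genes of oxidative phosphorylation. For the 13 protein genes of the mitochondrial genome it was 1.41.

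The subunits were also summed apart. Large-subunit genes summed to 4881, 4832 and 4836 TPM in young, 4824, 4915 and 4826 TPM in aged, and 4511, 4789 and 4626 TPM in treated libraries. Small-subunit genes summed to 2547, 2543 and 2536 TPM, 2592, 2688 and 2507 TPM, and 2597, 2681 and 2588 TPM in the same order. In the deposited TPM all treated libraries thus had a lower large-subunit sum than any other library, while the small-subunit sums of treated libraries were all above the young ones and overlapped the aged ones. The ratio of the large to the small sum, which no scaling factor of a library can change, was 1.92, 1.90 and 1.91 in young, 1.86, 1.83 and 1.92 in aged, and 1.74, 1.79 and 1.79 in treated libraries. It was lower in all 3 treated libraries than in the other 6. The separation of the large-subunit sums rested on the scaling, and that of the small-subunit sums on 1 gene. After median-of-ratios scaling the large-subunit sums were 4574 to 4963 TPM in treated, 4631 to 4773 TPM in young and 4727 to 4980.3 TPM in aged libraries, which overlap. Without Mrps33, described below, the small-subunit sums were 2188 to 2220.3 TPM in young, 2134 to 2239.6 TPM in aged and 2150.4 to 2197 TPM in treated libraries, which overlap too. The ratio without Mrps33 was 2.18 to 2.23 in young, 2.195 to 2.26 in aged and 2.05 to 2.187 in treated libraries. All treated libraries thus stayed below all aged ones, by a narrow gap, while treated library 2 stood above young library 2. All of this describes the sums, without a test, and the omission of Mrps33 was chosen after seeing the data.

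**Figure D3:**
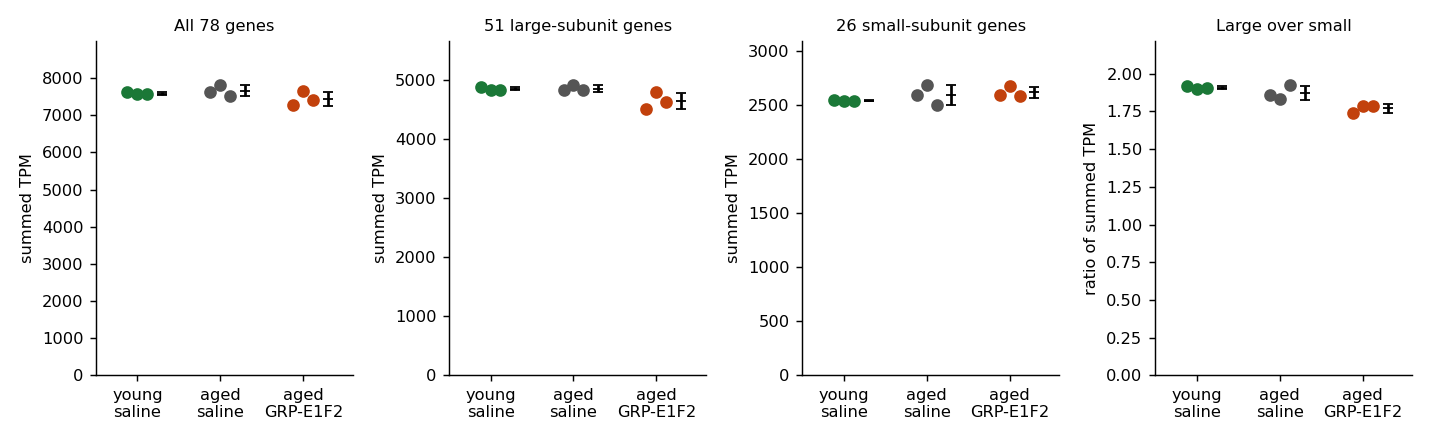
Summed TPM of all 78 genes, of the 51 large-subunit genes and of the 26 small-subunit genes, and the ratio of the large to the small sum, by group; points are libraries 1 to 3, bars mean and SD. The totals overlap between groups, while the ratio in the treated libraries (1.74 to 1.79) lies below that in the other 6 (1.83 to 1.92). Without Mrps33 the treated ratios overlap the young ones and stay just below the aged ones.

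The first comparison asked what differs between aged and young mice under saline. Only 4 of 78 genes passed limma's test on log2(TPM + 1) at a Benjamini-Hochberg adjusted p of 0.05 (5.13%), against 16.7% of all tested genes. Mrpl36 rose, 1 of 78 against 5.48% of all genes, and Mrps6, Mrpl37 and Mrpl9 fell, 3 of 78 against 11.2%. The median log2 fold change was -0.00494 over the family and -0.05 over all genes, and no member changed by 0.5 or more on the log2 scale, a size that 9.92% of all genes reached. In bulk samples, fewer cells of a type and less RNA per cell cannot be told apart. Of the cerebellar neuron markers 9 of 10 fell in the same comparison, as did 5 of 6 markers of mature oligodendrocytes, whose sum went from 8766 to 9328 TPM in young to 5928 to 7176 TPM in aged libraries. Hindbrain markers fell at all 5 tested and astrocyte and choroid plexus markers at 4 of 6 each. Neocortical and microglial markers rose at 3 of 6 each, and of the 6 general neuronal markers 1 rose and 1 fell. The part of these markers in the changes below was not tested.

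Mrps6, the counterpart of bacterial S6 in the small subunit, stood at 148, 149 and 144 TPM in young and 128, 127 and 105 TPM in aged libraries (-0.29 ± 0.0749 SE in log2 fold change, adjusted p = 0.0317). Every aged library was below every young one, and aged library 3 was lowest. Mrpl37, a mitochondria-specific protein of the large subunit, was at 34.3, 35.7 and 33.9 TPM in young and 28.3, 28.3 and 30.7 TPM in aged libraries, also without overlap (-0.24 ± 0.0542 SE in log2 fold change, adjusted p = 0.0214). Mrpl9, the counterpart of bacterial L9, was at 45.7, 41.9 and 43.8 TPM in young and 35.1, 36.3 and 40.5 TPM in aged libraries, a fall with a narrow gap between young library 2 and aged library 3 (-0.23 ± 0.0662 SE in log2 fold change, adjusted p = 0.0466). Mrpl36, the counterpart of the smallest bacterial large-subunit protein, was at 155, 167 and 155 TPM in young and 188, 204 and 177 TPM in aged libraries, higher in all 3 (0.25 ± 0.0675 SE in log2 fold change, adjusted p = 0.0362). Ndufs6, whose start is next to that of Mrpl36, had a log2 fold change of 0.00250 with age (limma adjusted p = 0.988).

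The age calls changed with the settings. There were 5 rises and 1 fall after median-of-ratios scaling and 4 rises and 2 falls after quantile normalisation, and the family's median log2 fold change turned from -0.00494 to 0.04 and 0.03. Of all tested genes 6.93% rose and 7.62% fell after median of ratios, and 7.26% and 8.29% after quantile normalisation. With 2 libraries per group limma called none, 1 gene having an unadjusted p under 0.05 against 14 with all libraries; only 3 of all 13301 genes (0.0226%) were called there, so this says nothing about the family. None were called without young library 2, young library 3 or aged library 2, when 4.77%, 2.79% and 2.85% of all genes were. There was 1 fall without young library 1 or without treated library 3 and 2 falls without aged library 1, while 2 rose and 4 fell without treated library 2, and 5 rose and 4 fell without aged library 3. Over the 21 alternatives tried, the limma adjusted p ran from 0.0259 to 0.408 for Mrps6, 0.014 to 0.494 for Mrpl37, 0.0177 to 0.576 for Mrpl9 and 0.0228 to 0.596 for Mrpl36. Each highest value came from the fit with 2 libraries per group. Mrps6 was called in 13 of 21 alternatives, Mrpl37 in 17, Mrpl9 in 7 and Mrpl36 in 14. After median of ratios Mrps6 and Mrpl9 missed the threshold (limma adjusted p = 0.0559 and 0.121), and Mrpl9 also after quantile normalisation. All 4 kept their direction, which only a change of scaling could have turned, since their groups did not overlap. Groups did not overlap at 19 of the 78 genes, 8 higher and 11 lower with age, against 41.5% of all genes (14.7% higher and 26.8% lower).

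Of the members named for their roles, none passed the test with age. Mrps5, a small-subunit protein whose gene's expression has been tied to lifespan among mouse strains, was at 27.3, 28.7 and 26.8 TPM in young and 26.96, 27.7 and 26.96 TPM in aged libraries, with full overlap (-0.02 ± 0.0534 SE in log2 fold change, adjusted p = 0.834). Mrps12, the counterpart of bacterial S12 at the decoding centre, stood at 182 ± 11.5 and 180.1 ± 15.98 TPM (limma adjusted p = 0.875). Mrpl11, Mrpl10 and Mrpl12 form the stalk that recruits translation factors. Mrpl11 was at 67.9, 69.6 and 67.3 TPM in young and 78.7, 74.5 and 76.4 TPM in aged libraries, without overlap but short of the threshold (0.16 ± 0.0567 SE in log2 fold change, adjusted p = 0.0777). Mrpl10 and Mrpl12 had log2 fold changes of 0.19 and 0.00224 (limma adjusted p = 0.0837 and 0.986). The 3 relatives of bacterial S18 also did not pass: log2 fold changes were 0.000373 for Mrps18a, 0.06 for Mrps18b and 0.08 for Mrps18c.

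The second comparison took GRP-E1F2 against saline in aged mice. Here 9 of 78 genes were called (11.5%), against 20.8% of all tested genes. Mrpl30 rose, 1 of 78 against 7.47% of all genes. Mrpl22, Mrpl39, Mrpl34, Mrpl4, Mrpl58, Mrpl18, Mrpl17 and Mrps36 fell, 8 of 78 (10.3%) against 13.4%. The 8 called ribosomal genes were all of the large subunit, 8 of its 51 genes, while limma called none of the 26 small-subunit genes, 6 of which had an unadjusted p under 0.05 against 16 in the large subunit. Under other settings 1 or 2 small-subunit genes passed, such as Mrps17 and Mrps25 as rises under median-of-ratios scaling and Mrps5 as a fall without the filter, and whether the subunits differ was not tested. The median log2 fold change was -0.06 over the family, -0.07 over the large and -0.00860 over the small subunit, against -0.02 over all genes. Cerebellar neuron markers fell at 10 of 10 and astrocyte markers at 5 of 6, the latter from 1385 to 1589 TPM summed in aged to 832 to 845 TPM in treated libraries. Mature oligodendrocyte markers fell at 4 of 6 and hindbrain markers at 1 of 5 tested. Markers rose at 2 of 6 for microglia, 1 of 6 for neurons in general and 2 of 2 tested for photoreceptors. The part of all these markers in the family's changes was not tested.

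Mrpl22, the counterpart of bacterial L22, a protein that lines the exit tunnel, showed the largest change of the family. It stood at 32.4, 29.4 and 33.8 TPM in young, 40.7, 44.9 and 34.8 TPM in aged and 23.2, 25.7 and 24.2 TPM in treated libraries. All treated libraries were below all others and all aged libraries were above the young, with aged library 3 close to young library 3. The log2 fold change with GRP-E1F2 was -0.69 (SE 0.0955, limma adjusted p = 0.0014), the only one in the family of at least 0.5 in size, which 11.5% of all genes reached. Its log2 fold change with age was 0.32 (limma adjusted p = 0.0506), which missed the threshold.

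Mrpl39, a mitochondria-specific large-subunit protein, fell next most. It was at 50.8, 49.4 and 51.99 TPM in young, 48.4, 46.1 and 44.1 TPM in aged and 35.8, 32.2 and 34.2 TPM in treated libraries (-0.43 ± 0.0597 SE in log2 fold change, adjusted p = 0.00144). The 3 groups did not overlap with each other. Mrpl34, whose promoter stretch is printed above and which encodes the counterpart of a small basic bacterial protein, was at 312, 292 and 269.7 TPM in aged and 237, 249 and 239.5 TPM in treated libraries (-0.26 ± 0.0599 SE in log2 fold change, adjusted p = 0.0152). Mrpl4, another counterpart of a tunnel protein, was at 58.3, 63.6 and 71.1 TPM and 53.2, 55.2 and 53.03 TPM (-0.25 ± 0.0739 SE in log2 fold change, adjusted p = 0.0425). Both were lower in every treated library than in any aged one, but Mrpl4 spread widely among the aged libraries.

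Mrpl58, also called Ict1, is a peptidyl-tRNA hydrolase built into the large subunit that frees stalled chains. It was at 77.1, 75.02 and 75.4 TPM in aged and 70.1, 60.3 and 63.1 TPM in treated libraries (-0.23 ± 0.0651 SE in log2 fold change, adjusted p = 0.0345), with treated library 1 nearest the aged values. Mrpl18 was at 117, 123 and 114 TPM in aged and 99.1, 104 and 99.7 TPM in treated libraries (-0.22 ± 0.0497 SE in log2 fold change, adjusted p = 0.0139), and its neighbour Tcp1, a subunit of the cytosolic chaperonin, had a log2 fold change of 0.14 (limma adjusted p = 0.137). Mrpl17 was at 89.7, 97.9 and 102 TPM and 78.3, 85.6 and 85.2 TPM (-0.21 ± 0.0623 SE in log2 fold change, adjusted p = 0.0402). None of these 3 genes overlapped between the groups.

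Mrps36, of the 2-oxoglutarate dehydrogenase complex in the citric acid cycle, was at 221, 213 and 192 TPM in aged and 169, 182 and 184 TPM in treated libraries (-0.22 ± 0.0626 SE in log2 fold change, adjusted p = 0.0352). Mrpl30, the counterpart of bacterial L30, was the only member that rose, from 118, 129 and 124 TPM to 135, 149 and 146 TPM (0.21 ± 0.0596 SE in log2 fold change, adjusted p = 0.0356). Its treated libraries were all above its aged ones.

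**Figure D4:**
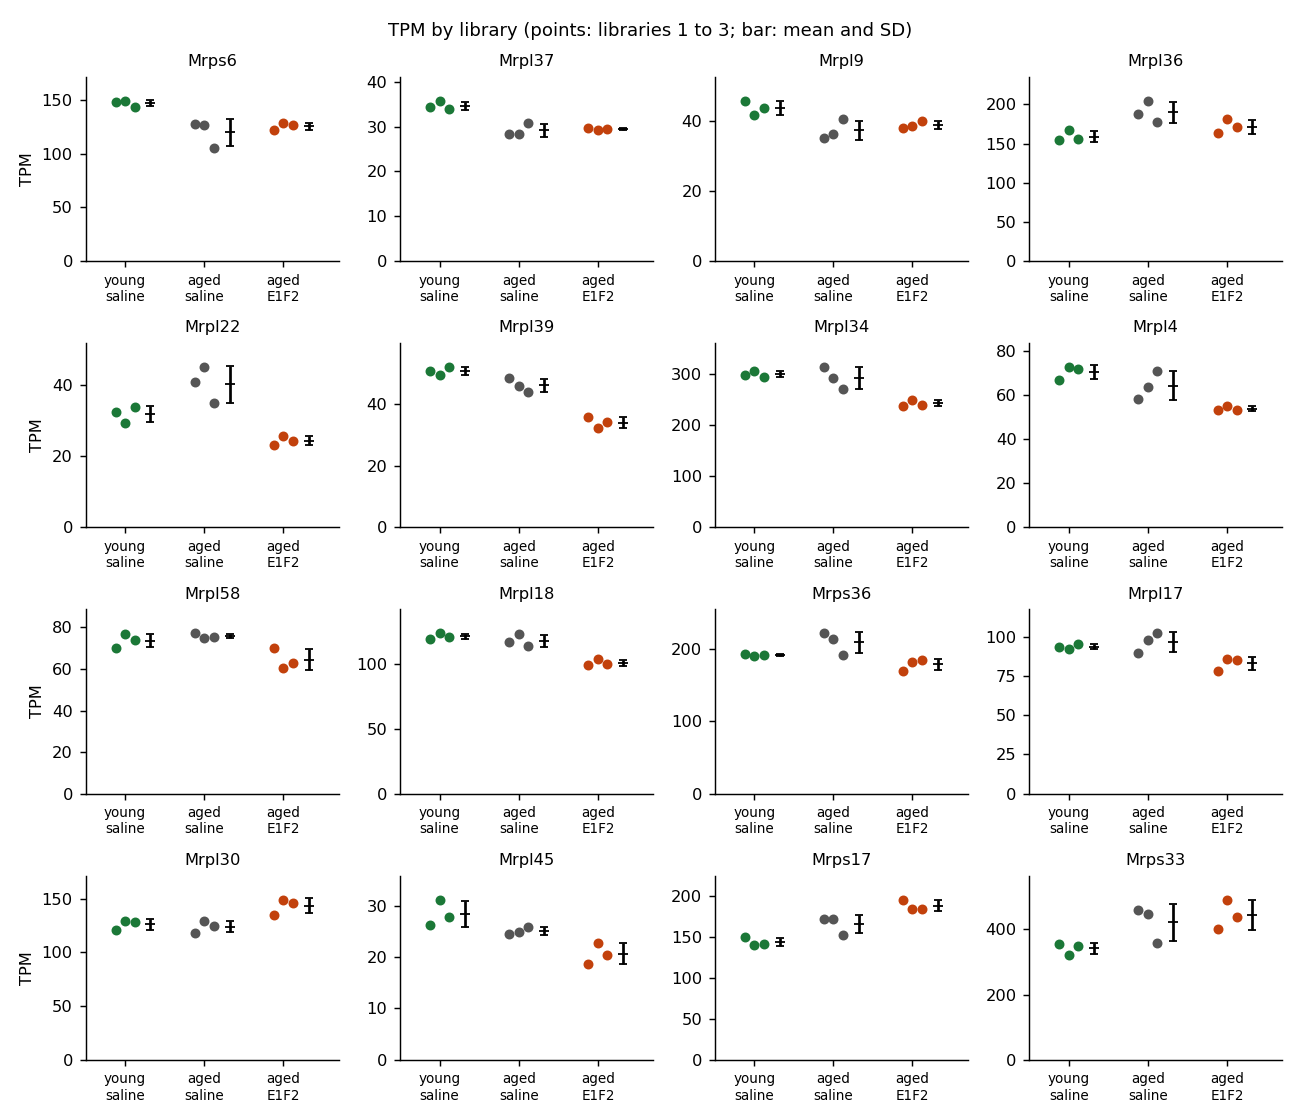
TPM by library of 16 mitochondrial ribosomal protein genes, 13 of them called for age or for GRP-E1F2 in aged mice, with Mrpl45, Mrps17 and Mrps33 called between treated and young libraries; points are libraries 1 to 3, bars mean and SD. Mrpl22 and Mrpl39 show the widest gap between aged and treated libraries, and all axes start at 0.

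Of the members named for their roles, small-subunit Mrps5 was at 24.1, 23.3 and 24.8 TPM in treated libraries, below all aged ones, and just missed the threshold (-0.17 ± 0.0534 SE in log2 fold change, adjusted p = 0.0512). Mrps17, the counterpart of bacterial S17, was at 173, 172 and 153 TPM in aged and 196, 185 and 184 TPM in treated libraries, higher without overlap but not called (0.18 ± 0.0621 SE in log2 fold change, adjusted p = 0.0678). Mrps12 stood at 180.1 ± 15.98 and 179 ± 4.04 TPM (limma adjusted p = 0.974). Mrpl44, an RNase III-like protein of the large subunit, had a log2 fold change of -0.06, and the stalk genes Mrpl10, Mrpl11 and Mrpl12 had -0.02, -0.03 and -0.12, none of which passed.

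All 9 calls for GRP-E1F2 kept their direction over the 21 alternatives, but none was called in all of them. Their groups did not overlap, so only a change of scaling could have turned a direction. There were 4 rises and 5 falls after median-of-ratios scaling and 1 rise and 6 falls after quantile normalisation. Of all tested genes 9.68% rose and 12.1% fell under the first of these scalings and 11.02% and 11.1% under the other. With 2 libraries per group limma called none, beside 1.86% of all genes, and 2 members had an unadjusted p under 0.05 against 23 with all libraries. Without aged library 2 or treated library 3 it called 2, both falls, beside 10.1% and 10.3% of all genes. It called 4 falls without young library 3, 5 falls without aged library 3, and 1 rise and 5 falls without young library 1. Of all genes 15.2%, 16.9% and 19.8% were called in the same order. Mrpl22 and Mrpl39 were called in 20 of 21 alternatives each, with limma adjusted p from 0.000844 to 0.0924 and 0.00108 to 0.153. For Mrpl4, Mrpl17, Mrps36 and Mrpl30 the count was 8, 9, 9 and 11 of 21. Groups did not overlap at 24 of 78 genes, 7 higher and 17 lower, against 36.3% of all genes (14.9% higher and 21.5% lower).

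**Figure D5:**
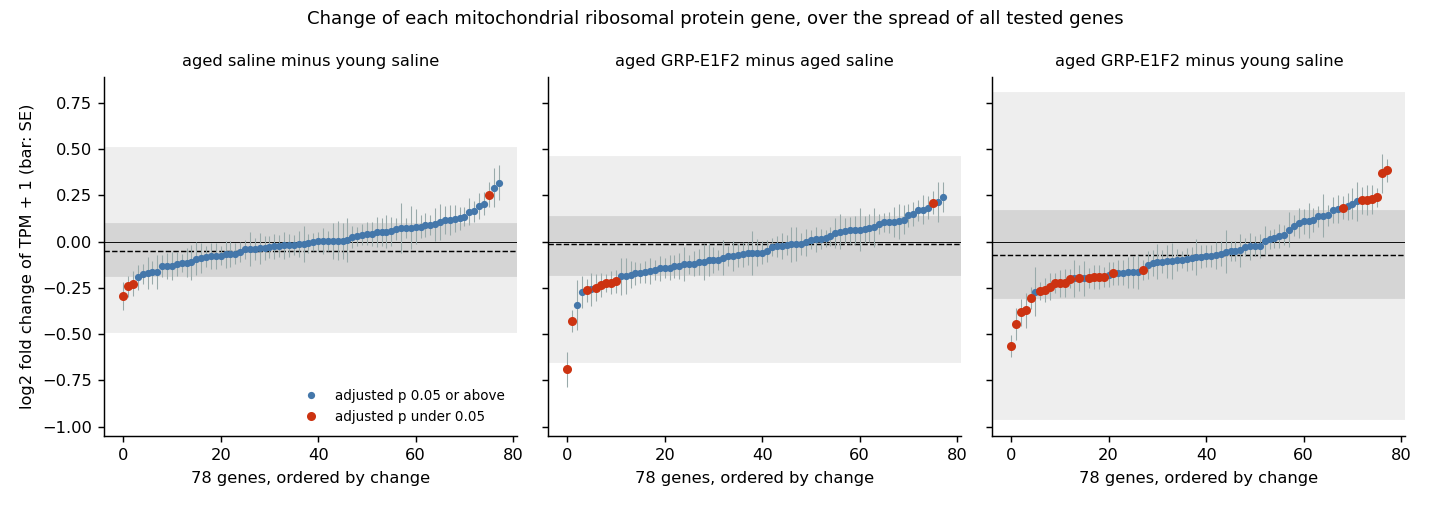
Log2 fold change of TPM + 1 (bar: SE) of the 78 genes in each comparison, ordered by change; red points passed limma at an adjusted p under 0.05, the dark grey band runs between the quartiles of all tested genes, the light band from their 5th to their 95th percentile, and the dashed line is their median. Red points number 4, 9 and 26 from left to right, and 1 gene, Mrpl22 with GRP-E1F2, lies below the light band.

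The third comparison set treated aged libraries against young ones, and so spans both age and GRP-E1F2. It shares its libraries with the other comparisons and is no independent support for either. Of the 78 genes 26 were called (33.3%), against 46.6% of all tested genes. Of these 7 rose (8.97%, against 17.2% of all genes) and 19 fell (24.4%, against 29.4%). The split depended on scaling, with 16 rises and 8 falls after median of ratios and 12 of each after quantile normalisation, and with a family median of -0.08 in the deposited TPM, -0.00750 and -0.03 under the alternatives. Of all genes 22.5% rose and 23.2% fell after median of ratios, and 23.4% and 22.4% after quantile normalisation. With 2 libraries per group 1 gene was called, Mrpl39, beside 12.9% of all genes, and 8 members had an unadjusted p under 0.05 against 35 with all libraries. The counts were 4 and 13 without young library 2, 3 and 11 without young library 3, and 2 and 12 without treated library 3, when 35.9%, 35.8% and 35.6% of all genes were called. Astrocyte markers fell at 6 of 6, oligodendrocyte markers at 6 of 6 and cerebellar neuron markers at 10 of 10, while microglial and neocortical markers rose at 6 of 6 each and hindbrain markers fell at all 5 tested; their part was not tested.

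Of the 22 genes of mitochondria-specific large-subunit proteins 11 fell and none rose, with a median log2 fold change of -0.18. Of the 29 bacterial-type large-subunit genes 4 rose and 5 fell (median -0.02), of the 16 bacterial-type small-subunit genes 1 rose and 3 fell (median -0.09), and of the 10 mitochondria-specific small-subunit genes 2 rose and none fell (median 0.09), beside 17.2% and 29.4% of all genes. Under median-of-ratios scaling 4 mitochondria-specific large-subunit genes fell and none rose (median -0.10), while 10 bacterial-type ones rose and 4 fell and 23.2% of all genes fell. Under quantile normalisation 7 mitochondria-specific ones fell and none rose (median -0.13), and with 2 libraries per group 1 fell (median -0.18). The bacterial-type large-subunit genes turned to medians of 0.05 and 0.03 under the first pair of settings. The mitochondria-specific small-subunit rises include Mrps18b, a relative of bacterial S18. These counts describe the classes as listed, whose difference was not tested.

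Mrpl39 fell most, at -0.56 (SE 0.0597, limma adjusted p = 0.000115), and was called in all 21 alternatives (adjusted p 0.00011 to 0.0285). Mrpl45, which anchors the ribosome to the inner membrane beside the tunnel exit, was at 26.3, 31.2 and 27.9 TPM in young, 24.5, 24.9 and 25.96 TPM in aged and 18.7, 22.8 and 20.5 TPM in treated libraries (-0.44 ± 0.0860 SE in log2 fold change, adjusted p = 0.0028). Its groups were stepwise lower without overlap, although neither the age difference nor the GRP-E1F2 difference passed alone (limma adjusted p = 0.193 and 0.0521). Mrpl4 (-0.38), Mrpl22 (-0.37), Mrpl34 (-0.30), Mrpl18 (-0.27), Mrpl48 (-0.26), Mrpl38 (-0.24), Mrpl37 (-0.23), Mrpl53 (-0.23), Mrps6 (-0.22) and Mrps7 (-0.20) followed in log2 fold change. The other 7 falls were of Mrpl43, Mrpl51, Mrpl46, Mrpl57, Mrpl58, Mrpl17 and Mrps5, the last from 27.6 ± 0.956 to 24.1 ± 0.775 TPM (SD, n = 3). The log2 fold change of Mrps5 was -0.19 (SE 0.0534, limma adjusted p = 0.0169). After median-of-ratios scaling none of these 7 was called, nor were Mrpl38, Mrpl53, Mrps6 and Mrps7. For Mrps5 the limma adjusted p was 0.0966 under that scaling and 0.109 after quantile normalisation.

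Groups did not overlap at 44 of 78 genes, 14 higher and 30 lower, against 61.4% of all genes (22.9% higher and 38.5% lower). The largest rises were of small-subunit genes. Mrps17 was at 149.6, 140.2 and 141 TPM in young and 196, 185 and 184 TPM in treated libraries, with the aged libraries in between (0.39 ± 0.0621 SE in log2 fold change, adjusted p = 0.00107). Mrps33, a mitochondria-specific small-subunit gene and the third highest of the family, was at 356, 323 and 348 TPM in young, 458, 448 and 357 TPM in aged and 400.2, 491 and 438 TPM in treated libraries (0.37 ± 0.107 SE in log2 fold change, adjusted p = 0.0197). Aged library 3 alone of the aged libraries stood at the young level. Mrpl3, which reaches the peptidyl transferase centre, was at 39.3, 38.6 and 40.6 TPM in young and 45.3, 47.4 and 47.6 TPM in treated libraries (0.24 ± 0.0535 SE in log2 fold change, adjusted p = 0.00586). Mrps18b, Mrpl33, Mrpl32 and Mrpl30 rose by 0.23, 0.22, 0.22 and 0.18 on the log2 scale. The other relatives of bacterial S18 had -0.03 for Mrps18a and 0.07 for Mrps18c and did not pass.

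The genes that work with the mitochondrial ribosome were read from fixed lists, with all 9 libraries. Beside their counts, 5.48% of all tested genes rose and 11.2% fell with age, 7.47% and 13.4% with GRP-E1F2, and 17.2% and 29.4% between young and treated libraries. Of 5 ribosome subunits with other names, limma called none for age or GRP-E1F2, none having an unadjusted p under 0.05, and Aurkaip1 and Gadd45gip1 fell between young and treated libraries. Aurkaip1 was at 149.96, 155 and 154 TPM in young and 136, 139 and 138 TPM in treated libraries (limma adjusted p = 0.0187). Of 14 translation factors limma called none for age, 3 having an unadjusted p under 0.05, while 2 fell with GRP-E1F2 and 4 fell between young and treated libraries, 14.3% and 28.6% of the list and so near the shares of all genes. Tsfm, the exchange factor of the elongation factor Tufm, was at 21.9, 22.8 and 24.4 TPM in young, 22.7, 22.4 and 21.8 TPM in aged and 19.2, 16.1 and 17.7 TPM in treated libraries (-0.32 ± 0.0739 SE in log2 fold change, adjusted p = 0.0156). Tufm itself had a log2 fold change of -0.15 with GRP-E1F2 (limma adjusted p = 0.0788) and of -0.27 between young and treated libraries (limma adjusted p = 0.00304).

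Among 24 genes of ribosome assembly and rRNA modification, 1 rose and 2 fell with age, 1 rose and 2 fell with GRP-E1F2, and 2 rose and 5 fell between young and treated libraries. Tfb1m, which methylates the small-subunit rRNA, rose with GRP-E1F2 from 4.09, 3.93 and 3.54 to 5.39, 5.70 and 5.27 TPM (0.41 ± 0.0847 SE in log2 fold change, adjusted p = 0.00995), without overlap. Nsun4, another rRNA methyltransferase, fell with age (-0.34 ± 0.0809 SE in log2 fold change, adjusted p = 0.0259), and the GTPase gene Mtg1 rose (0.26 ± 0.0647 SE in log2 fold change, adjusted p = 0.0299). Of 20 genes that charge mitochondrial tRNAs, 1 rose and 4 fell with GRP-E1F2. Aars2, the alanyl-tRNA synthetase, was at 13.3, 13.6 and 13.1 TPM in young, 12.6, 12.4 and 14.3 TPM in aged and 9.25, 8.13 and 8.90 TPM in treated libraries (-0.53 ± 0.0737 SE in log2 fold change, adjusted p = 0.00141). Sars2, which starts next to Mrps12, fell in all 3 comparisons (log2 fold changes -0.32, -0.32 and -0.63), while Mrps12 had -0.02, -0.00417 and -0.02.

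Of 11 genes of mitochondrial transcription and its regulators, 1 fell with age and 2 with GRP-E1F2. Between young and treated libraries 1 rose and 4 fell. Nrf1, whose motif is marked above, was among these falls (log2 fold change -0.45, limma adjusted p = 0.00498), while Gabpa was not called (limma adjusted p = 0.332). Their part in the family's levels was not tested. Polrmt, the mitochondrial RNA polymerase, was at 8.65, 9.25 and 10.1 TPM in aged and 7.28, 6.54 and 6.94 TPM in treated libraries (-0.38 ± 0.0978 SE in log2 fold change, adjusted p = 0.0251). Esrra, a nuclear receptor that drives genes of energy metabolism, was at 50.9, 55.3 and 62.8 TPM and 46.04, 46.2 and 46.1 TPM (-0.28 ± 0.0772 SE in log2 fold change, adjusted p = 0.0339). Of the RNAs for the 13 proteins made by these ribosomes, those of the complex I subunits ND4L, ND5 and ND6 rose with age. The same 3 fell with GRP-E1F2. The direction was not particular to them: over all 13 the log2 fold change with age ran from 0.0773 to 0.45 (median 0.28). With GRP-E1F2 it ran from -0.46 to -0.0944 (median -0.27). ND6 was at 572, 648 and 617 TPM in young, 962, 853 and 715 TPM in aged and 556, 671 and 603 TPM in treated libraries (log2 fold changes 0.45 and -0.46, limma adjusted p = 0.0287 and 0.0198). The aged libraries are shared by both comparisons, so a high aged level enters both.

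Set beside the other ribosome and the respiratory chain, the family's share of calls was 5.13%, 11.5% and 33.3% for age, GRP-E1F2 and treated against young. For the 79 tested cytosolic ribosomal protein genes it was 6.33%, 5.06% and 20.3%, and for the 81 tested nuclear genes of oxidative phosphorylation 9.88%, 4.94% and 49.4%. Cytosolic ribosomal protein genes had a median log2 fold change of 0.05 between young and treated libraries, with 13 that rose and 3 that fell, and nuclear oxidative phosphorylation genes of -0.20, with 1 that rose and 39 that fell, while the family's was -0.08. The differences between these families were not tested.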

How the data were processed

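RNA was sequenced in 9 libraries, 3 per group. Fragmented mRNA was primed at random and prepared with the NEBNext Ultra II kit, per the labels' protocols. The submitters' processing notes name HISAT2, GATK, Picard and SAMtools 0.1.18, and the build mm10. The table deposited by the authors holds TPM for each gene in each library. Which tool and annotation made the TPM, and how strand and shared reads were handled, was not given in the sources used here. TPM keeps no depth, so no counting error is given, and tests on counts were not run.

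TPM values were transformed to log2(TPM + 1), a scale that understates the change of low genes, and limma 3.58.1 (R 4.3.3) was fitted to all 9 libraries for the 13301 genes whose mean reached 1 TPM, with a trended eBayes. The 3 contrasts share libraries. Tests were two-sided, with Benjamini-Hochberg adjustment over all tested genes, and the words rose and fell are kept for an adjusted p under 0.05. The method was tested on simulated data first. Positions are from RefSeq and GENCODE vM21 on GRCm38 (mm10), and motifs were searched in RefSeq promoters (GRCm38.p6).

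Named members are the 8 highest and 4 lowest by mean TPM, up to 12 rises and 12 falls per contrast among called members, and Mrps5, Mrps12, Mrps18a, Mrps18b, Mrps18c, Mrps30, Mrps36, Mrpl3, Mrpl10, Mrpl11, Mrpl12, Mrpl44 and Mrpl58 for their roles. From each other list, up to 3 called genes per contrast with the smallest p and the gene of highest mean TPM were eligible. Other members, and Nrf1 and Gabpa, were named after their values were seen. The members, lists and alternatives were chosen with earlier results of these data known. The alternatives were other pseudocounts, filters and scalings, leaving out mitochondrially encoded genes, a replicate block, only the groups compared, other eBayes settings, leaving out each library, and 2 libraries per group. Other tools were Python 3.11.15 with pandas 2.3.3, numpy 2.4.6 and matplotlib 3.10.9.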

Additional observations from a re-analysis of the deposited data

How the results depend on the processing

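All called members kept their direction under all 21 alternatives (4 for age, 9 for GRP-E1F2, 26 for treated against young), but only Mrpl39, between treated and young libraries, was called in every one. The groups did not overlap at any called member, so fits that left out libraries could not turn a direction. Only a change of scaling could have done so, and the kept direction therefore says little. For age, 2 members rose with a pseudocount of 5 TPM or a mean of at least 5 TPM, and 3 without mitochondrially encoded genes. Of all genes 5.38%, 5.90% and 5.70% rose under these settings. There were 5 rises and 1 fall under median-of-ratios scaling, 4 rises under quantile normalisation, and 0 and 0 with 2 libraries per group. Shares of all genes under the 2 scalings and with 2 libraries per group are given with each comparison above. For GRP-E1F2, 2 rose without a filter, beside 5.85% of all genes. Median of ratios gave 4 and 5, and 2 libraries per group 0 and 0. Only the groups compared gave 0 and 4 and eBayes without trend 0 and 5, beside 15.7% and 20.3% of all genes called. For treated against young, there were 16 rises and 8 falls under median of ratios, with a median log2 fold change of -0.00750, 12 and 12 under quantile normalisation, and 0 and 1 with 2 libraries per group. The mean family sum became 7334, 7662 and 7602 TPM (young, aged and treated) under median of ratios, so that the treated mean lay above the young one, 7488, 7712 and 7481 TPM under quantile normalisation, and 7882, 8017 and 7747 TPM (young, aged and treated) without mitochondrially encoded genes. Mean large-subunit sums became 4691 TPM (young) under median of ratios and 4786 TPM (young) under quantile normalisation, and small-subunit sums 2459 TPM (young) and 2678 TPM (treated) under median of ratios and 2514 TPM (young) under quantile normalisation. Without Mrps33, an alternative chosen after seeing the data like both of these for the subunits, small-subunit means were 2199.8, 2174 and 2179 TPM and the ratio of large to small 2.20, 2.23 and 2.13 (young, aged and treated). The cause of these shifts was not tested, except that rescaling without abundant genes raises every other TPM by construction.

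Leaving out 1 library gave 0 to 5 rises and 0 to 4 falls for age, 0 to 2 and 2 to 10 for GRP-E1F2, and 2 to 11 and 11 to 22 for treated against young. Of all genes 2.79% to 19.8%, 10.1% to 23.0% and 35.6% to 49.9% were called in these fits, in the same order. The family's median ran from -0.0144 to 0.00482, from -0.0692 to -0.0330 and from -0.0967 to -0.0639. Its sums ran from 7563 to 7592 (young), 7581 to 7726 (aged) and 7338 to 7525 TPM (treated). Where an arm was left with fewer libraries, limma took its spread from all groups. With the replicate number as a block, 2 rose and 2 fell for age, 1 and 8 for GRP-E1F2, and 6 and 17 for treated against young. These fits shared 3, 7 and 21 calls with those without the block, and 15.45%, 19.5% and 44.7% of all genes were called in them. Nothing in the labels pairs the numbers: correlations of deviations were -0.0549 to 0.126 for the same number and -0.134 to 0.123 for others, and 4 of 18 were highest with their own number. With 3 libraries per group, the exact permutation test of a single value cannot go below p = 0.1. The unknown depth and the unknown source of the libraries limit all of these values.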
